A study of Arabidopsis thaliana with 6 samples.

Results

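Late embryogenesis abundant (LEA) proteins and dehydrins of Arabidopsis thaliana were followed in siliques, the seed pods. The set was a list of 53 loci, found in the deposited table by the locus part of each row's identifier. It covers every group of LEA proteins with the dehydrins, and leaves out the hydroxyproline-rich glycoproteins that share the LEA_2 fold. All 53 had a row among the 27628 loci of the table, and all 53 matched a gene of the TAIR10.1 annotation. The study compared 3 libraries labelled WT with 3 labelled as the shp1 shp2 mrpl1 mutant, from plants grown on sugar-containing Murashige and Skoog medium under long days. SHP1 and SHP2 are MADS-box factors that specify the valve margin, where the pod opens, and MRPL1 was taken as AT2G42710, a mitochondrial L1-type ribosomal protein. The labels give no ecotype, silique age, allele or number of plants per sample, and do not say whether replicates are separate plants or pools. P-values thus reflect only how far these libraries scatter, and that scatter may be technical.

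LEA proteins are small, very hydrophilic and mostly unfolded in solution. They build up in the embryo late in seed development, when the seed acquires tolerance of drying, and many are also made in leaves and roots under drought, cold or abscisic acid. Dehydrins are the LEA class with lysine-rich repeats that bind membranes. In seeds the master regulator ABI3 and bZIP factors such as ABI5 drive many LEA genes through abscisic acid response elements, which carry the core ACGTG, while cold acts through CBF factors at the core CCGAC. Classes here follow the conserved domain: LEA_1 to LEA_5, SMP (seed maturation protein), PvLEA18, AtM and the dehydrins.

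The stretch of 200 bases before the annotated transcript start was read from the TAIR10.1 RefSeq genome for each locus, and both motifs were searched on either strand. A palindromic CACGTG (G-box) holds the ACGTG core on each strand and was counted as 2 matches. ACGTG occurred in 34 of 53 LEA promoters (64.2%), against 20% of 27418 nuclear protein-coding loci. The G-box occurred in 35.8% of LEA promoters against 5.72% of all, and CCGAC in 34% against 10.2%. The promoters of 4 genes are printed, 5′ to 3′ on the gene's strand, with each ACGTG or its reverse CACGT in capitals. EM6 (chr2:16780369-16780568, minus strand) and EM1 (chr3:19214522-19214721, plus strand) are shown because these close relatives differed in the comparison below. AT4G36600 (chr4:17263364-17263563, plus strand) and AT4G21020 (chr4:11227987-11228186, plus strand) are shown because both are LEA_4 genes rich in the motif and only the first was called.
EM6 AT2G40170: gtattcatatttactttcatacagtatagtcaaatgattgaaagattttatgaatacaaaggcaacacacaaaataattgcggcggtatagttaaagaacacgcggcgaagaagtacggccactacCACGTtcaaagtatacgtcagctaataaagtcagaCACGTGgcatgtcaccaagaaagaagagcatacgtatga
EM1 AT3G51810: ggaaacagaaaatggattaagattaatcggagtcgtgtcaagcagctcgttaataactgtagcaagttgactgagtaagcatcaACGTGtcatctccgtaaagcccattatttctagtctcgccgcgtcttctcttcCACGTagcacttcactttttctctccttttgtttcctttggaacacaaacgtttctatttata
AT4G36600: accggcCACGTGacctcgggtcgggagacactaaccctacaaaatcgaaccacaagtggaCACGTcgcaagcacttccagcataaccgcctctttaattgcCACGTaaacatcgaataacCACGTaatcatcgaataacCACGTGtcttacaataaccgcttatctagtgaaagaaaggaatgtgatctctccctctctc
AT4G21020: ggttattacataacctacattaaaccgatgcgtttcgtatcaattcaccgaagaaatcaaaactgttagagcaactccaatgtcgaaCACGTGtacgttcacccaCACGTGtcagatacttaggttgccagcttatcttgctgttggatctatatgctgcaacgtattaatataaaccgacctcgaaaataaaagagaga
The motif was matched 3 times in the EM6 window, 2 times at EM1, 7 times at AT4G36600 and 4 times at AT4G21020. A match is a description of the letters and not of a bound site. Among genes whose level differed, described next, ACGTG stood in 15 of the 18 called higher and in 18 of the 27 tested and not called. Among all loci called higher it stood in 25.4%. M10 and AT3G22500, among the largest increases, had no ACGTG or CCGAC in their windows.

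The libraries held 17857873 to 21603816 estimated counts. In each group replicate 1 stood apart: the chi-square per degree of freedom was 11.47 and 11.57 between WT replicate 1 and the others against 2.493 between WT replicates 2 and 3, and 8.788 and 7.402 against 2.813 in the mutant-labelled group. The genotype was seen only in part. SHP1 was lower in the mutant-labelled libraries (log2 fold change −0.51, SE 0.087, edgeR adjusted p = 0.00242), while SHP2 (−0.01, edgeR adjusted p = 0.937) and MRPL1 (0.24, edgeR adjusted p = 0.172) were not called. Because of this the second group is called mutant-labelled throughout. RNA of embryo and of green tissue was present: all 17 storage-protein and oil-body genes of the embryo were tested, and none of 5 photosynthesis genes was at 0. These markers are not particular to the pod, so the silique label itself was not tested.

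More LEA genes were called higher than lower in the mutant-labelled siliques. Of the 53, 46 passed the expression filter; 18 of these were called higher, 1 was called lower and 27 were not called (Benjamini-Hochberg adjusted p under 0.05 over 20827 loci, edgeR's quasi-likelihood test). The higher calls were 39.1% of tested LEA genes, where 4.89% of all tested loci were called higher and 4.07% lower. The median log2 fold change was 0.26 over the tested LEA genes and −0.002 over all tested loci. A total of 38 fold changes were positive and 8 negative. In 26 genes every mutant-labelled library lay above every WT library, a pattern found in 13.7% of all tested loci, and in 3 every mutant-labelled library lay below, against 12.3%. One gene, AT5G53260, passed the filter through the mutant-labelled libraries alone; of the 45 others 17 were called higher. In RNA from whole siliques, a change in the number of cells of a type and a change in RNA per cell cannot be told apart.

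Higher calls came from abundant and scarce LEA genes. Of 20 tested genes at 100 CPM or more in WT, 5 were called higher, and of 26 below 100 CPM, 13 were; CPM is the counts-per-million level after TMM scaling. The difference between these shares was not tested. The 53 genes summed to 6928, 6505 and 6686 CPM for WT replicates 1 to 3 and to 7590, 8235 and 7994 CPM for the mutant-labelled ones. The groups did not overlap in this sum. LEA_4 genes supplied 50.3% of it in WT and 45.3% in the mutant-labelled group, and dehydrins 29.3% and 30.6%.

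Without replicate 1 of each group, 32 LEA genes were called higher and 3 lower, where 15.3% and 15.8% of all tested loci were called higher and lower. All 18 higher calls made with every library were kept there, and the median was 0.35. An offset for transcript length in each library gave 22 higher and 4 lower calls, where 8.41% and 7.38% of all tested loci were called, again with all 18 kept. The 4 lower calls were AT3G02480, AT4G21020, RAB28 and M17. A set of 10 genes was called in all 15 alternative settings: EM6, M10, AT4G36600, AT3G22490, AT3G22500, AT2G23110, AT4G38410, RAB18, XERO1 and AT2G35300.

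**Figure D1:**
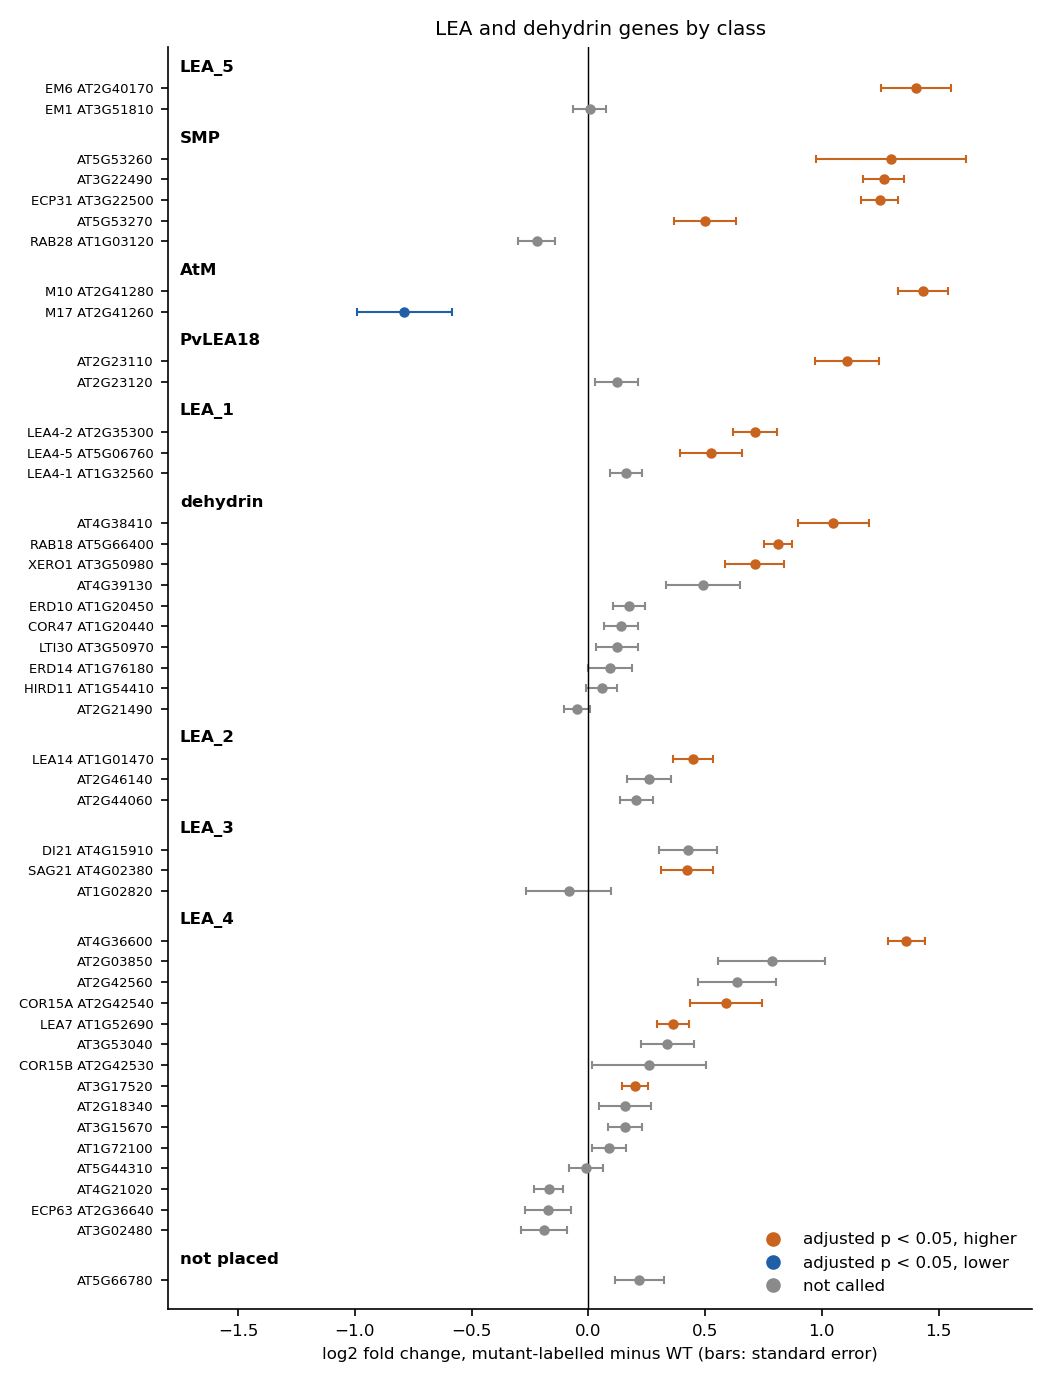
Log2 fold change (mutant-labelled minus WT, bars are standard errors) of the 46 tested LEA and dehydrin genes, grouped by class. Orange marks the 18 genes called higher, blue the 1 called lower and grey the 27 not called. Of the higher calls 8 reach 2-fold, among them AT5G53260, which passed the filter through the mutant-labelled libraries alone.

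The LEA_5 class, the Em proteins first known from wheat embryos, gave 1 higher call of 2 genes. EM6 (AT2G40170, reference symbol GEA6, chr2:16779552-16780368, minus strand, 2 exons), which times water loss in the maturing seed, stood at 154, 111 and 113 CPM across WT replicates 1 to 3 and at 275, 381 and 342 CPM in the mutant-labelled replicates, the order used for every gene. All mutant-labelled libraries were above all WT libraries, and EM6 was 2.64-fold higher (log2 1.40, SE 0.15, edgeR adjusted p = 0.000493). Its replicates 1 were the closest to each other, and without them the log2 fold change was 1.69. EM1 (AT3G51810, chr3:19214722-19215831) stood at 276, 301 and 325 CPM in WT and at 296, 316 and 293 CPM in the mutant-labelled libraries. The groups overlapped, and EM1 was not called (log2 0.01, SE 0.070, edgeR adjusted p = 0.976); its sign turned under 4 of 15 alternatives. Per kilobase of transcript, EM1 lay above EM6 in WT (325 ± 26.2 against 175 ± 33.7 CPM per kilobase, SD, n = 3) and below it in the mutant-labelled group (326 ± 13.3 against 462 ± 74.6). The log2 ratio of EM1 to EM6 was 0.84, 1.44 and 1.52 in WT and 0.11, −0.27 and −0.22 in the mutant-labelled libraries, without overlap (exact permutation p = 0.1, the smallest possible, 0.2 adjusted over 10 pairs).

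Of 6 SMP genes, 4 were called higher, 1 was tested and not called and 1 was not tested. AT3G22490 and AT3G22500 lie 781 bases apart on chromosome 3. AT3G22490 (chr3:7969681-7970843) stood at 24.1, 19.3 and 21.7 CPM in WT and at 51.5, 50.9 and 53.9 CPM in the mutant-labelled libraries (log2 1.26, SE 0.088, edgeR adjusted p = 2.53e-06). AT3G22500, the homologue of carrot embryogenic cell protein ECP31 (chr3:7971625-7972907), stood at 42.5, 39.5 and 38.9 CPM in WT and at 87.5, 102 and 98.1 CPM in the mutant-labelled libraries (log2 1.25, SE 0.080, edgeR adjusted p = 1.47e-06). Both genes showed groups far apart and little spread within them. The log2 ratio of the neighbours was 0.90 in WT and 0.88 in the mutant-labelled group (exact permutation test over 20 assignments, two-sided, p = 0.8, 0.889 adjusted over 10 pairs).

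Of the other tested SMP genes, AT5G53270 and AT5G53260 lay lower in level. AT5G53270 stood at 3.90, 4.26 and 4.54 CPM in WT and at 5.66, 6.299 and 6.02 CPM in the mutant-labelled libraries (log2 0.50, SE 0.13, edgeR adjusted p = 0.0343). Its neighbour AT5G53260 stood at 0.439, 0.655 and 0.353 CPM in WT and at 1.10, 1.31 and 1.19 CPM in the mutant-labelled libraries (log2 1.295, SE 0.32, edgeR adjusted p = 0.0230). Neither pair of groups overlapped, but both calls were fragile. AT5G53270 was lost when any single library other than mutant-labelled replicate 1 was left out (edgeR adjusted p from 0.0631 without WT replicate 1 to 0.123 without mutant-labelled replicate 3). AT5G53260 was lost without WT replicate 3 (0.102), mutant-labelled replicate 2 (0.0849) or mutant-labelled replicate 3 (0.0815, each edgeR adjusted p). The pair shared 12.86% and 7.53% of their 50-base windows, so reads could have been split between them. AT5G53260 passed the filter only through the group where it is high, so the ratio of the pair is not given, though the pair was among the 10 compared. RAB28 (AT1G03120), an abscisic acid responsive SMP gene, went the other way: 22.5, 22.3 and 23.6 CPM for WT and 19.0, 19.6 and 20.03 CPM in the mutant-labelled libraries, without overlap and not called (log2 −0.22, SE 0.080, edgeR adjusted p = 0.114). With the length offset RAB28 was called lower (log2 −0.32, edgeR adjusted p = 0.00705).

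The AtM class has only M10 and M17, adjacent genes 1998 bases apart on chromosome 2, and they moved in opposite directions. M10 (AT2G41280, chr2:17209697-17210423) stood at 20.8, 18.9 and 17.1 CPM in WT and at 44.7, 58.1 and 50.8 CPM in the mutant-labelled libraries. Its log2 fold change was 1.43 (SE 0.11, edgeR adjusted p = 4.32e-06), within the standard error of that of EM6. M17 (AT2G41260, chr2:17206452-17207698) stood at 4.24, 5.57 and 7.37 CPM in WT and at 3.89, 2.96 and 3.06 CPM in the mutant-labelled libraries. It was the single lower call (log2 −0.79, SE 0.20, edgeR adjusted p = 0.0282), with the 2 libraries numbered 1 nearly touching. The call was lost without WT replicate 2 (0.0636), WT replicate 3 (0.149), mutant-labelled replicate 2 (0.114) or mutant-labelled replicate 3 (0.132, each edgeR adjusted p). The log2 ratio of M10 to M17 was 2.29, 1.76 and 1.22 in WT and 3.52, 4.30 and 4.05 in the mutant-labelled libraries. The ratios did not overlap (exact permutation test, two-sided, p = 0.1, the smallest that 20 assignments allow, 0.2 adjusted over 10 pairs).

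**Figure D2:**
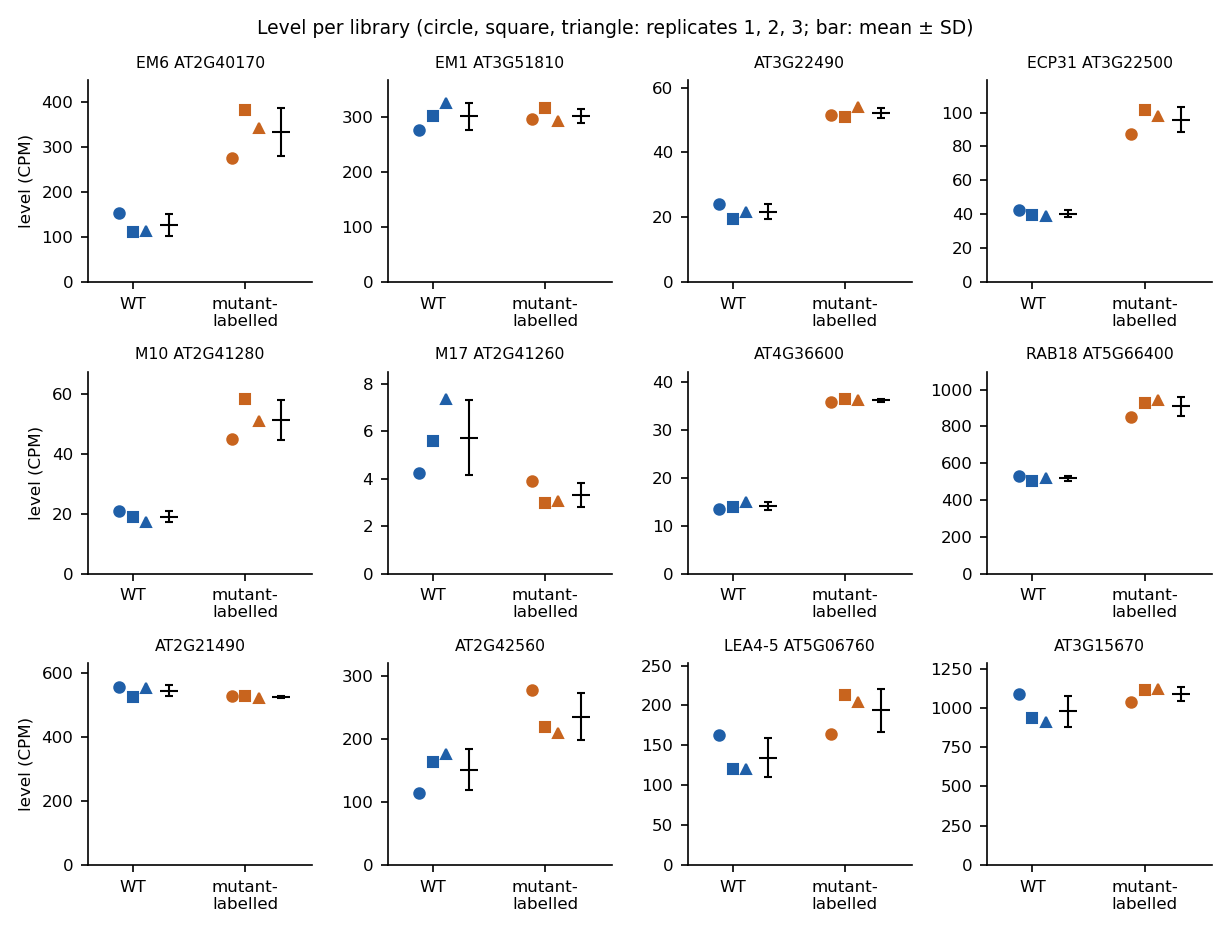
Level in CPM (linear axes from 0) of 12 LEA genes in each of the 6 libraries, with the mean ± SD of each group beside the points. EM6, AT3G22490, AT3G22500, M10, AT4G36600 and RAB18 show separated groups, M17 is lower, and EM1 and AT2G21490 overlap.

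PvLEA18 proteins are very short seed proteins named after a bean gene. AT2G23110 (chr2:9840456-9841069) stood at 25.5, 16.8 and 21.5 CPM in WT and at 39.2, 47.7 and 50.5 CPM in the mutant-labelled libraries (log2 1.11, SE 0.14, edgeR adjusted p = 0.000365). AT2G23120, 772 bases away, stood at 128, 107 and 111 CPM in WT and at 112, 139 and 126 CPM in the mutant-labelled libraries. Its groups overlapped and it was not called (log2 0.12, SE 0.090, edgeR adjusted p = 0.484), though it was called higher without both replicates 1 (log2 0.28, edgeR adjusted p = 5.88e-05); it shares 12.77% of its windows with the antisense gene AT2G23118. The log2 ratio of AT2G23120 to AT2G23110 was 2.46 in WT and 1.46 in the mutant-labelled group, with no overlap (exact permutation p = 0.1, the smallest possible, 0.2 adjusted over 10 pairs).

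LEA_1 proteins gain helical structure on drying and protect enzymes under water deficit. LEA4-2 (AT2G35300, reference symbol LEA18) stood at 55.8, 46.3 and 48.4 CPM in WT and at 72.3, 86.2 and 88.2 CPM in the mutant-labelled libraries (log2 0.71, SE 0.095, edgeR adjusted p = 0.000387). LEA4-5 (AT5G06760) stood at 164, 121 and 120.0 CPM in WT and at 164, 213 and 205 CPM in the mutant-labelled libraries. Its replicates 1 met at 163.5 and 163.6 CPM, so the groups were separated by replicates 2 and 3 (log2 0.53, SE 0.13, edgeR adjusted p = 0.0329; log2 0.80 without both replicates 1). The LEA4-5 call was lost without any 1 of replicates 2 and 3 of either group (edgeR adjusted p from 0.0959 to 0.11) and without the expression filter (0.0682). LEA4-1 (AT1G32560), the class member of highest level per length, stood at 183, 165 and 164 CPM in WT and at 181, 192 and 200.3 CPM in the mutant-labelled libraries, with overlap and no call (log2 0.16, SE 0.069, edgeR adjusted p = 0.187). It was called higher without WT replicate 1 and without both replicates 1 (log2 0.25 in the latter).

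All 10 dehydrins were tested, and 3 were called higher, none lower. RAB18 (AT5G66400, chr5:26518297-26519447), an abscisic acid responsive dehydrin, stood at 532, 502 and 518 CPM in WT and at 852, 929 and 945 CPM in the mutant-labelled libraries. The gap was several times the spread within a group, and RAB18 was 1.76-fold higher (log2 0.81, SE 0.061, edgeR adjusted p = 4.9e-06). XERO1 (AT3G50980) stood at 43.8, 33.8 and 35.7 CPM in WT and at 50.9, 71.3 and 63.5 CPM in the mutant-labelled libraries (log2 0.71, SE 0.13, edgeR adjusted p = 0.00358). AT4G38410 stood at 2.93, 2.48 and 2.62 CPM in WT and at 6.04, 5.37 and 5.21 CPM in the mutant-labelled libraries (log2 1.05, SE 0.15, edgeR adjusted p = 0.000757). In both the groups were apart.

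The cold and drought dehydrins COR47, ERD10, ERD14 and LTI30 were not called, with log2 fold changes of 0.14, 0.17, 0.09 and 0.12. Without both replicates 1 all 4 were called higher, at 0.21, 0.23, 0.28 and 0.24 (edgeR adjusted p from 1.6e-05 to 0.00603), and ERD10 was also called with the length offset (0.0229). COR47 and ERD10, neighbours on chromosome 1, were each higher in every mutant-labelled library, by small amounts. COR47 was 76.2, 67.2 and 68.2 CPM for WT and 76.5, 76.8 and 79.5 CPM in the mutant-labelled libraries, with replicates 1 nearly equal. ERD10 was 118, 115 and 115 CPM for WT and 123, 140.2 and 129 CPM in the mutant-labelled libraries. LTI30 lies 313 bases from XERO1. The log2 ratio of XERO1 to LTI30 was −0.08, −0.27 and −0.22 in WT and 0.24, 0.45 and 0.50 in the mutant-labelled libraries (exact permutation p = 0.1, the smallest possible, 0.2 adjusted over 10 pairs). The ratios did not overlap; per kilobase XERO1 lay above LTI30 in both groups (52.8 against 44.3 in WT and 86.6 against 48.3 in the mutant-labelled group). The ratio of ERD10 to COR47 differed by 0.03 on the log2 scale (exact permutation p = 0.8, 0.889 adjusted over 10 pairs). The seed dehydrin AT2G21490 stood at 556, 526 and 554 CPM in WT and at 529, 528 and 522 CPM in the mutant-labelled libraries, overlapping and not called (log2 −0.05, SE 0.056, edgeR adjusted p = 0.656). HIRD11 (AT1G54410), a metal-binding dehydrin, averaged 261 ± 10.2 CPM for WT and 272 ± 16.7 CPM in the mutant-labelled group (SD, n = 3), also not called. AT4G39130 stood at 3.80, 2.86 and 3.84 CPM in WT and at 4.99, 4.77 and 4.97 CPM in the mutant-labelled libraries, without overlap and not called (log2 0.49, SE 0.16, edgeR adjusted p = 0.0738). It was called higher without both replicates 1 (edgeR adjusted p = 0.0286). In WT, per kilobase, AT2G21490 lay above RAB18 (633 ± 19.8 against 484 ± 13.9 CPM per kilobase), and in the mutant-labelled group below it (611 ± 4.23 against 850.0 ± 46.5).

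LEA_2 proteins, unlike other classes, have a folded globular domain. LEA14 (AT1G01470) stood at 70.4, 62.4 and 66.4 CPM in WT and at 79.3, 95.7 and 96.7 CPM in the mutant-labelled libraries (log2 0.45, SE 0.087, edgeR adjusted p = 0.00554). AT2G44060 and AT2G46140 were higher in every mutant-labelled library without a call, at log2 0.20 and 0.26. Both were called higher without both replicates 1 (edgeR adjusted p = 0.000402 and 0.00220), and AT2G44060 also without WT replicate 1 (0.0307), with library totals (0.0457) and with the length offset (0.0172). AT2G44060, the LEA_2 gene of highest level per length, was 94.5 ± 6.28 CPM for WT and 109 ± 3.27 CPM in the mutant-labelled group (SD, n = 3; edgeR adjusted p = 0.09997). In all 3 genes the groups did not overlap.

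LEA_3 includes SAG21 (AT4G02380), a mitochondrial protein of senescence and oxidative stress, and the drought-induced DI21. SAG21 stood at 46.7, 40.0 and 37.9 CPM in WT and at 48.0, 65.1 and 54.1 CPM in the mutant-labelled libraries, with replicates 1 nearly equal (log2 0.42, SE 0.11, edgeR adjusted p = 0.0321). The SAG21 call was lost without any 1 of replicates 2 and 3 of either group (edgeR adjusted p from 0.0957 to 0.170), and 180 bases of SAG21 overlap another annotated gene on its strand. DI21 (AT4G15910) stood at 40.8, 29.5 and 31.1 CPM in WT and at 38.8, 49.0 and 48.6 CPM in the mutant-labelled libraries. WT replicate 1 lay above mutant-labelled replicate 1, and DI21 was not called (log2 0.43, SE 0.12, edgeR adjusted p = 0.0543). DI21 was called higher without both replicates 1 (log2 0.69, edgeR adjusted p = 1.44e-13), with the length offset (0.00112) and by DESeq2 (0.0204). AT1G02820 was not called at log2 −0.08, and AT3G53770 had no count.

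LEA_4 is the largest class, with 18 genes of which 15 were tested; 4 were called higher and 11 not called. AT4G36600 (chr4:17263564-17265172, 2 exons) was the clearest. It stood at 13.4, 13.9 and 15.04 CPM in WT and at 35.9, 36.5 and 36.4 CPM in the mutant-labelled libraries, 2.57-fold higher (log2 1.36, SE 0.081, edgeR adjusted p = 1.04e-06). LEA7 (AT1G52690) stood at 136, 122 and 121 CPM in WT and at 155, 169 and 162 CPM in the mutant-labelled libraries (log2 0.36, SE 0.070, edgeR adjusted p = 0.00520). Its groups did not overlap, and 297 of its bases overlap an antisense gene, which matters only if strand was not used in counting.

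COR15A (AT2G42540), a cold-induced protein of the chloroplast stroma, stood at 4.93, 4.35 and 3.79 CPM in WT and at 5.90, 6.08 and 7.69 CPM in the mutant-labelled libraries (log2 0.59, SE 0.15, edgeR adjusted p = 0.0302). The call was lost without any 1 of replicates 2 and 3 of either group (edgeR adjusted p from 0.0570 to 0.181). COR15B, 7 bases away in the annotation, stood at a mean of 1.55 ± 0.395 CPM for WT and 1.86 ± 0.192 CPM in the mutant-labelled group (SD, n = 3), not called, and shares 27.3% of its windows with the antisense gene AT2G42520. AT3G17520 stood at 347, 360.0 and 353 CPM in WT and at 406, 401 and 410.5 CPM in the mutant-labelled libraries. The gap was small but wider than the spread (log2 0.20, SE 0.056, edgeR adjusted p = 0.0421). AT3G17520 was lost when any 1 library was left out (edgeR adjusted p from 0.0528 without WT replicate 1 to 0.175 without mutant-labelled replicate 3).

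A pair of LEA_4 genes differed by at least 0.5 on the log2 scale without a call. AT2G42560 stood at 114, 163 and 175 CPM in WT and at 277, 218 and 209 CPM in the mutant-labelled libraries (log2 0.64, SE 0.17, edgeR adjusted p = 0.0537). The groups did not overlap, but replicate 1 was lowest in one group and highest in the other. Leaving out WT replicate 1 gave log2 0.47 (edgeR adjusted p = 0.00714), leaving out WT replicate 3 gave 0.76 (0.0218), and leaving out both replicates 1 gave 0.34 (3.96e-07). AT2G42560 was called higher in 6 of the 15 alternatives. The others were the DESeq2 test (DESeq2 adjusted p = 0.000126), DESeq2 size factors (edgeR adjusted p = 0.048) and the CPM filter (0.0475). With the length offset AT2G42560 was not called (edgeR adjusted p = 0.113). AT2G03850 stood at 1.46, 1.31 and 1.72 CPM in WT and at 2.54, 3.18 and 2.06 CPM in the mutant-labelled libraries (log2 0.78, SE 0.23, edgeR adjusted p = 0.0512). It was called higher in 5 of the 15 alternatives: library totals, no filter, the CPM filter, the length offset and both replicates 1 left out (edgeR adjusted p from 0.0280 to 0.05).

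AT3G15670 and AT3G02480, the LEA genes of highest level per length over all libraries, were also LEA_4 and were not called. Among the 10 genes of highest level per length, RAB18, EM6 and AT3G17520 were called higher. AT3G15670 stood at 1090.0, 936 and 907 CPM in WT and at 1036, 1112 and 1119 CPM in the mutant-labelled libraries (log2 0.16, SE 0.073, edgeR adjusted p = 0.235). AT3G02480 stood at 610, 490 and 538 CPM in WT and at 414, 535 and 486 CPM in the mutant-labelled libraries (log2 −0.19, SE 0.097, edgeR adjusted p = 0.285). Both overlapped between groups. AT3G02480 was called lower with the length offset (log2 −0.29, edgeR adjusted p = 7.75e-05) and stood at −0.009 (0.926) without both replicates 1. AT4G21020 stood at 449, 473 and 491 CPM in WT and at 420, 437 and 399 CPM in the mutant-labelled libraries, lower without overlap and not called (log2 −0.17, SE 0.062, edgeR adjusted p = 0.122). It was called lower without WT replicate 1 (edgeR adjusted p = 0.0430), without both replicates 1 (0.00168) and with the length offset (0.00917). AT3G15670 was called higher without WT replicate 1 (edgeR adjusted p = 0.0159) and without both replicates 1 (log2 0.27). ECP63 (AT2G36640) overlapped between groups (log2 −0.17, edgeR adjusted p = 0.338) and was called lower without both replicates 1 (log2 −0.36). The rest of the tested LEA_4 genes, among them AT3G53040, AT1G72100 and AT5G44310, lay between −0.01 and 0.34 on the log2 scale without a call; AT3G53040 stood at 0.34, and at 0.12 without both replicates 1.

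AT5G66780, which was placed in no class, stood at 81.3, 67.1 and 72.0 CPM in WT and at 73.2, 99.1 and 84.3 CPM in the mutant-labelled libraries, with overlap and no call (log2 0.22, SE 0.11, edgeR adjusted p = 0.254). It was called higher without mutant-labelled replicate 1 and without both replicates 1 (log2 0.40 in the latter). The 7 genes below the expression filter were AT3G53770, AT2G33690, AT2G03740, AT4G13230, AT4G13560, AT5G27980 and AT5G60530. AT3G53770 and AT2G33690 had no count in any library; 3 counts, the limit that a count of 0 allows, correspond to 0.140 to 0.164 CPM, for counting error only. AT5G27980, the sixth SMP gene, was at 0.342 ± 0.106 CPM for WT and 0.347 ± 0.0630 CPM in the mutant-labelled group (SD, n = 3).

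Per kilobase of transcript the LEA genes spanned several orders of magnitude. AT3G15670 (959 ± 96.3) and AT3G02480 (992 ± 110), in CPM per kilobase in WT (mean ± SD, n = 3), lay at the top and did not differ beyond their spread. AT2G21490 (633 ± 19.8), RAB18 (484 ± 13.9), AT4G21020 (428 ± 19.4) followed, each apart from the next by more than these SDs. EM1 (325 ± 26.2) and ERD14 (314 ± 33.2) came next and overlapped in spread. AT3G17520 (277 ± 4.97) lay below ERD14 by less than their SDs together, and HIRD11 (235 ± 9.16) and LEA4-1 (199 ± 12.2) lay below. In the mutant-labelled group RAB18 (850.0 ± 46.5) reached the level of AT3G02480 (870 ± 111), within the spread, and EM6 (462 ± 74.6) lay above AT4G21020 (380.5 ± 17.2) by less than their SDs together. The 10 genes of highest level per length over all libraries held 66.6% of the summed LEA CPM in WT.

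**Figure D3:**
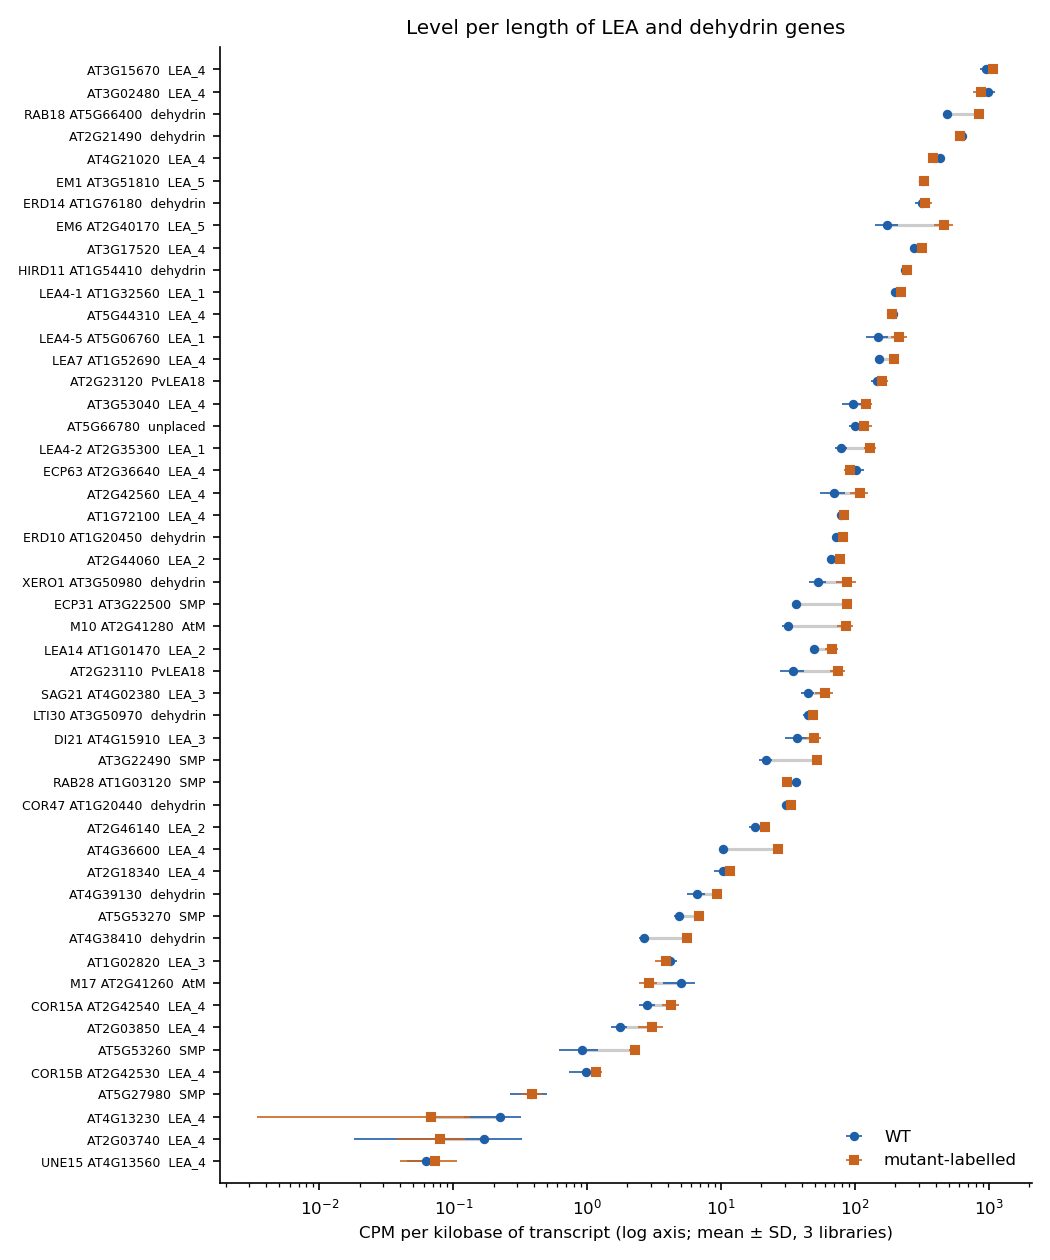
Level per length (CPM per kilobase of transcript, log axis; mean ± SD of 3 libraries) of the LEA and dehydrin genes with counts, ordered by level, WT as circles and mutant-labelled as squares. The grey line joins the group means. Among others it is long for EM6, RAB18, AT3G22490, M10 and AT4G36600, and it is short for the most abundant gene, AT3G15670. It is also long for AT4G13230 and AT2G03740, untested genes of few counts that lie lower in the mutant-labelled group.

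Several LEA genes moved with replicate 1. Across the 46 tested genes, Spearman's rho between transcript length and the log2 difference of WT replicate 1 from WT replicates 2 and 3 was −0.439, and for mutant-labelled replicate 1 it was 0.549; over 20733 tested loci the values were −0.502 and 0.536. The points share the same libraries, and the values are a description. Short LEA genes such as EM6, XERO1, AT2G23110 and LEA4-5 were over 0.3 higher on the log2 scale in WT replicate 1 and over 0.3 lower in mutant-labelled replicate 1. The long AT2G42560 went the opposite way in both groups. Between groups, rho with the log2 fold change was −0.207 over the tested LEA genes and −0.252 over all loci. The part of length and of replicate 1 in the calls was not tested. The fits given above kept the 18 higher calls, but they reused these libraries and called more of all loci. Higher calls were 15.3% of all loci without both replicates 1 and 8.41% with the length offset. They were 4.89% in the fit of every library without an offset.

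**Figure D4:**
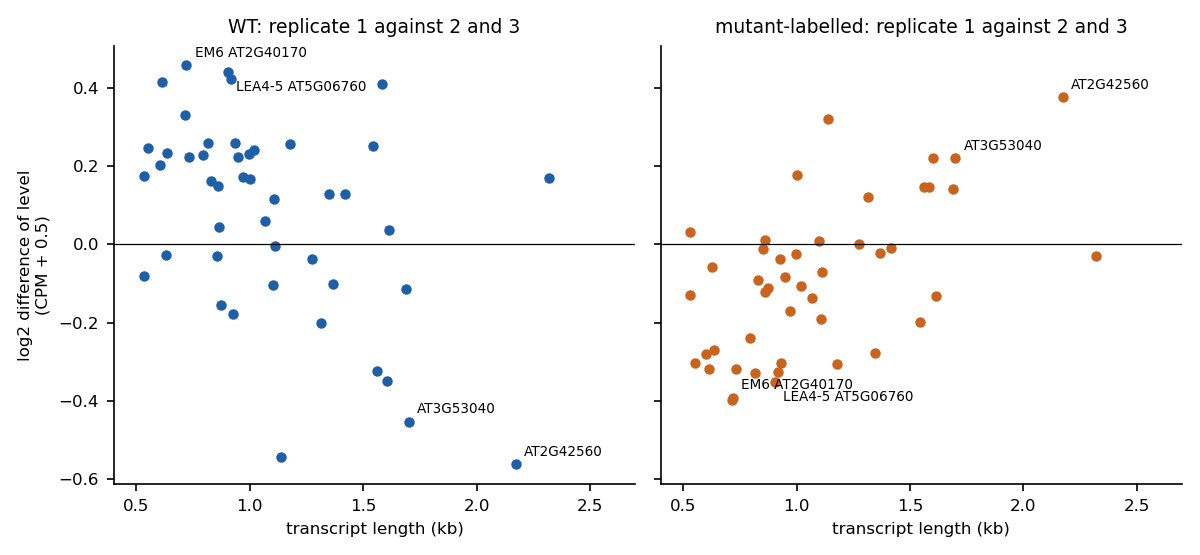
Log2 difference of replicate 1 from the mean of replicates 2 and 3 (level as CPM + 0.5) against transcript length in kilobases, one point per tested LEA gene, WT at left and mutant-labelled at right. Most short genes lie above 0 in WT and below 0 in the mutant-labelled group, and AT2G42560, the second longest, lies at the opposite ends.

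Some LEA genes lie near the loci named in the genotype. On chromosome 2, AT2G42560, COR15A and COR15B lie 65.4, 70.0 and 71.9 kb from MRPL1 and 103, 108 and 110 kb from SHP2. AT2G44060, which was not called, lies 441 kb from MRPL1 and 402 kb from SHP2. M10 and M17 lie 572 and 575 kb from MRPL1, and EM6 1002 kb. Of the 10 genes called in every setting, EM6, M10, AT2G35300 (2919 kb from MRPL1) and AT2G23110 (7941 kb) lie on chromosome 2. AT3G22490, AT3G22500 and XERO1 share chromosome 3 with SHP1 (XERO1 at 2795 kb, the others farther). AT4G36600, AT4G38410 and RAB18 lie on chromosomes 4 and 5.

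Known regulators of LEA genes gave calls in both directions. Of 17 seed maturation regulators tested, 2 were called higher and 4 lower, with a median log2 fold change of −0.08. Over all tested loci 4.89% were called higher and 4.07% lower, the shares to set beside this list and each list below. HSFA9, a heat stress factor of maturing seeds, stood at 5.12, 5.95 and 4.69 CPM in WT and at 8.92, 10.8 and 8.17 CPM in the mutant-labelled libraries (log2 0.82, SE 0.14, edgeR adjusted p = 0.00253). The seed bZIP factor bZIP67 was lower (log2 −0.45, SE 0.067, edgeR adjusted p = 0.000964), as were the dormancy gene DOG1 (−0.35) and the B3 repressor VAL2 (−0.45). LEC1 was the other higher call (0.29) and ABI4 the other lower one (−0.49); these, and ABI3, are named after their values were seen. ABI3 stood at 133, 175 and 176 CPM in WT and at 145, 115 and 116 CPM in the mutant-labelled libraries, overlapping and not called (log2 −0.37, SE 0.12, edgeR adjusted p = 0.0789). ABI3 was called lower without both replicates 1 (log2 −0.61) and with the length offset (−0.28). Without both replicates 1 the list gave 3 higher and 8 lower calls, where 15.3% and 15.8% of all tested loci were called higher and lower. The higher count is near that share.

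Other genes of the abscisic acid and cold responses had medians close to that of all loci. Of 18 genes of the abscisic acid pathway, RD29B, a hydrophilic stress protein, was called higher (log2 0.63, SE 0.077, edgeR adjusted p = 0.000209) and the bZIP factor ABF4 lower (−0.30). The phosphatase genes ABI2 and HAB1 were not called, at −0.27 and −0.20; without both replicates 1 both were called lower, at −0.18 and −0.30. Of 9 cold and CBF genes tested outside the LEA list, the membrane protein genes COR413IM1 (0.35) and COR413PM1 (0.37) were called higher, and none lower. KIN2 (0.27) and ZAT10 (−0.27) were not called; without both replicates 1 KIN2 was called higher (0.48, edgeR adjusted p = 7.67e-12) and ZAT10 lower (−0.29, 0.00107). With the length offset the calls on both were made too. The medians of the abscisic acid and cold lists were −0.04 and −0.01, beside 0.26 for the tested LEA genes.

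Storage proteins and oil-body genes of the embryo, which, like most seed LEA proteins, are products of the embryo, lay mostly lower. Of 17 tested, 10 were called lower and 1 higher, and their median log2 fold change was −0.25. The cruciferin genes CRU2 (−0.46), CRB (−0.41) and CRC (−0.42) were among the lower calls, and the higher call was HSD1, a steroleosin (0.37, SE 0.063, edgeR adjusted p = 0.00193). Their summed level was 204025 to 216889 CPM for WT and 165385 to 177366 CPM in the mutant-labelled libraries, without overlap. The part of this difference in the LEA result, through the counts-per-million scaling or otherwise, was not tested.

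Some markers of other silique tissues and of pollen were called too. Of 8 seed coat genes, 3 were called higher: the mucilage genes MUM4 (0.31) and MUM2 (0.33) and the pigment regulator TT8 (0.26). The 8 seed coat genes summed to 1222 to 1308 CPM for WT and 1401 to 1532 CPM in the mutant-labelled libraries. The largest part was TT10, at 690 to 756 CPM for WT and 762 to 866 CPM in the mutant-labelled libraries. TT10 was not called (log2 0.14, edgeR adjusted p = 0.239) and stood at log2 0.04 without both replicates 1. Of 7 endosperm genes, ZOU, a factor needed for endosperm breakdown, was called higher (0.63) and the imprinted MADS-box gene PHE1 lower (−1.14). The endosperm sum ran from 3111 to 8457 CPM in WT and from 5263 to 8857 CPM in the mutant-labelled libraries, overlapping, with its lowest value in WT replicate 1 and its highest in mutant-labelled replicate 1. Nearly all of it was EPR1 (3086 to 8431 CPM in WT and 5234 to 8829 CPM in the mutant-labelled libraries); the other 6 genes summed to 25.1 to 26.6 CPM for WT and 26.3 to 29.2 CPM for the mutant-labelled libraries. Of 5 pollen genes tested out of 8, RALF4 (1.496) and VGD1 (0.62) were called higher, and the list's sum was low, 13.8 to 17.8 CPM for WT and 19.9 to 25.6 CPM in the mutant-labelled libraries. Of 5 photosynthesis genes, LHCB1.3 (0.30) and PSBO1 (0.24) were called higher, with sums of 5528 to 5904 CPM and 6252 to 6892 CPM. No marker was at 0 in all libraries, and the part of tissue make-up in the LEA levels was not tested.

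**Figure D5:**
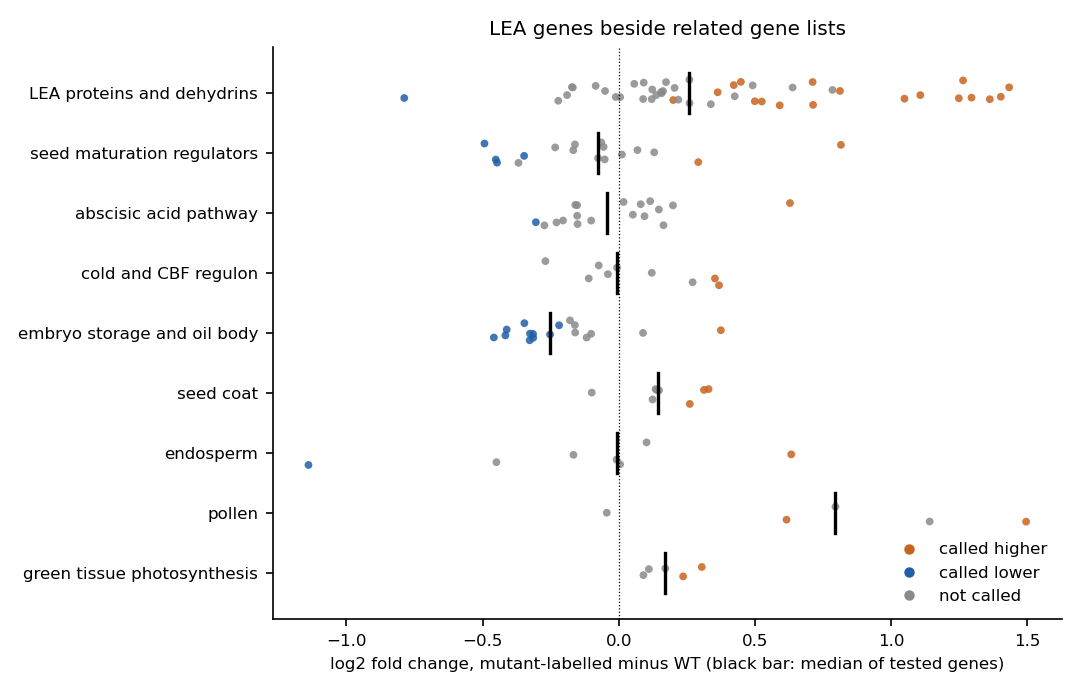
Log2 fold change (mutant-labelled minus WT) of each tested gene of the LEA set and of 8 related lists, with the median of each as a black bar. Tested LEA genes have a median of 0.26, seed maturation regulators −0.08 and embryo storage and oil-body genes −0.25; pollen, with 5 tested genes of low level, has the highest median.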

How the data were processed

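RNA from siliques was measured in 6 libraries, 3 labelled WT and 3 labelled shp1 shp2 mrpl1. The authors deposited estimated counts per transcript identifier; 2.95% to 3.47% of values per library were not whole (tolerance 1e-09), and values were rounded before testing. Tools listed in the submitters' processing notes are featureCounts 1.6.3, HISAT2, DESeq2, Trimmomatic 0.39 and FastQC 0.11.9; no source used here gives the build, annotation or strand setting. Identifiers were matched to TAIR10.1 (27419 of 27628 to a transcript).

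edgeR 4.0.16 (R 4.3.3) was run on the whole table (TMM, default filter with minimum count 10 and minimum total 15, robust quasi-likelihood test, genotype only), with Benjamini-Hochberg adjustment over 20827 loci and a threshold of 0.05. The fit was also run on simulated counts with known changes, as a check of the code and not of the results given here. Differences are mutant-labelled minus WT; standard errors were taken as log2 fold change over the root of F. Ratios of 10 pairs, chosen as LEA genes within 10 kb of each other or as the LEA_5 pair, were compared by exact permutation. Alternatives used DESeq2 1.42.0, limma 3.58.1 (voom), other scalings and filters, a length offset, the replicate block, and left-out libraries. Named were all called LEA genes, the highest per length in each class, the 10 highest per length, uncalled ones changed by at least 0.5 (log2), and up to 4 genes of smallest p per related list; other genes were named after their values were seen. Members, lists and tests were chosen with earlier results of these data known.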

Additional observations from a re-analysis of the deposited data

How the results depend on the processing

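The count of LEA genes called higher (18) ran from 12 to 23 when 1 library was left out (2.75% to 7.29% of all loci called higher), from 17 to 22 under other scalings, filters, tests and the length offset (4.23% to 8.41%), and reached 32 with both replicates 1 left out (15.3%). The single lower call became 4 with the length offset (7.38% of all loci called lower) and 3 with both replicates 1 left out (15.8%), and ran from 0 to 3 when 1 library was left out: 3 without WT replicate 1 (6.98% of all loci) and 0 without replicate 2 or 3 of either group (2.02% to 2.56%). These lower counts, of 46, are near or below the shares of all loci. The median log2 fold change of tested LEA genes, 0.259, was 0.352 with both replicates 1 left out and 0.211 to 0.319 with 1 library left out. EM1 turned to −0.079 with the length offset, to −0.053 without WT replicate 1 (range −0.053 to 0.064 with 1 library left out), to −0.029 without mutant-labelled replicate 2 and to −0.040 with both replicates 1 left out, and HIRD11 to −0.001 with the length offset; none was called. The cause of these shifts was not tested.

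Libraries sharing a number did not deviate in the same direction: the correlations of their deviations were −0.364, −0.188 and −0.116. With 3 libraries per group these values do not settle whether the replicate numbers pair samples. With the replicate block 10 LEA genes were called higher and 0 lower (2.28% and 1.54% of all loci), at a median of 0.265, and LEA14 and LEA7 lost their call in this setting alone; no sample correlated best with its own number. Depth limits the genes near 1 CPM, such as AT5G53260 and COR15B, the most.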
